A study of Mus musculus with 6 samples.

Results

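The RNF genes encode proteins named for the RING finger, a zinc-binding fold, and most of them are ubiquitin ligases. A ubiquitin ligase brings a ubiquitin-charged conjugating enzyme to a target protein, and the chain that results can send the target to the proteasome, change its place in the cell or build a signalling platform. Some RNF ligases act in the response to viral nucleic acid, where chains on RIG-I, a cytosolic RNA sensor, and linear chains on components of NF-kB signalling pass the signal on. Others act on chromatin, at the endoplasmic reticulum, on endosomes or in the Wnt pathway, which in liver sets the zonation of hepatocytes. Members were all rows of the deposited table whose symbol is Rnf followed by a number, with or without a further letter, and 54 of 8390 rows met this. The rule used the name alone and no measured value, but it was set with earlier results of these data known.

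RNA was sequenced from livers of C57BL/6 mice, an inbred strain. The LV group comprised 3 libraries from livers of mice that had received 3e8 transducing units of a lentiviral vector into a vein and were killed 4 h later, and the other group comprised 3 libraries from livers of untreated mice. The design has no mice given a mock injection, so effects of the vector, the injection and the handling cannot be told apart. The labels used here state neither the age and sex of the mice nor the promoter and cargo of the vector. The labels number the replicates and do not say whether each came from a separate mouse. The p-values therefore reflect only how far these samples differ among themselves, and that spread may be technical.

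Values are whole numbers, taken here as a score that the authors had normalised and rounded, with sums per library of 497295 to 526009. Such sums do not give the number of reads, and the depth is unknown. All 12 listed hepatocyte markers were in the table, with summed values of 85584 to 98752 in LV and 90184 to 116345 in untreated livers. Of the markers of other cells, 11 of 12 for Kupffer cells summed to 221 to 416 in LV and 298 to 432 in untreated livers. All 10 for sinusoidal endothelium summed to 97 to 170 in LV and 174 to 197 in untreated livers. Single markers went both ways. On average, LV livers were higher in 3 and lower in 8 of the 11 Kupffer cell markers. LV livers were higher in 3 and lower in 7 of the 10 endothelial markers. In each list, every LV value lay above every untreated value for 1 marker and below for 2. No marker of either list passed the test used below. None of the 12 neutrophil markers or of the 15 T, B and NK cell markers was in the table. In bulk liver RNA, fewer cells of a type and less RNA per cell cannot be told apart, and the part of these markers in the results below was not tested. LV replicate 3 and untreated replicate 2 stood apart, with summed values of listed male-biased liver genes of 11118 and 5917, against 639 to 2167 in the other libraries.

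The RNF family as a whole moved little, and 3 of its genes rose. Of the 54 members, 3 (5.56%) were higher in LV livers at an adjusted p under 0.05 in limma, against 3.76% of the 8386 genes tested, and 0 were lower, against 0.870%. At an unadjusted p under 0.05, 6 members were higher and 3 lower (16.7% in all), against 772 higher and 866 lower of all tested genes (19.5% in all). The share of higher members was therefore near that of all genes. The genes that rose were Rnf31, Rnf135 and Rnf114, and each has a described link to innate immune signalling. The count of 3 fell to 1 without LV replicate 2 and to 1 without untreated replicate 1, with Rnf135 called in each case. Without LV replicate 3 and untreated replicate 2 together the count was also 3, of which Rnf31 and Rnf135 were shared and Rnf24 took the place of Rnf114.

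All 54 members passed the filter on low values, none was at 0 in any library, and single values ran from 2 to 57. Nearly all rows of the deposited table did so too, as 8386 of 8390 passed and 51 held a 0. A difference is given here as the LV mean minus the untreated mean of log2(value + 1). The median difference was -0.03 over the members, against -0.07 over all tested genes. Between the quartiles, the members spanned -0.15 to 0.14 and all genes -0.25 to 0.12. The 95% confidence interval of the difference lay between -1 and 1 for 46 members (85.2%), against 80.3% of all tested genes. Of the members that did not pass, those whose intervals reached beyond -1 or 1 were Rnf14, Rnf39, Rnf103, Rnf125 and Rnf152. The groups did not overlap in 9 members. In 5 of them (9.26%) every LV value lay above every untreated value, against 8.65% of all genes, and in 4 (7.41%) every LV value lay below, against 11.0% of all genes.

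**Figure D1:**
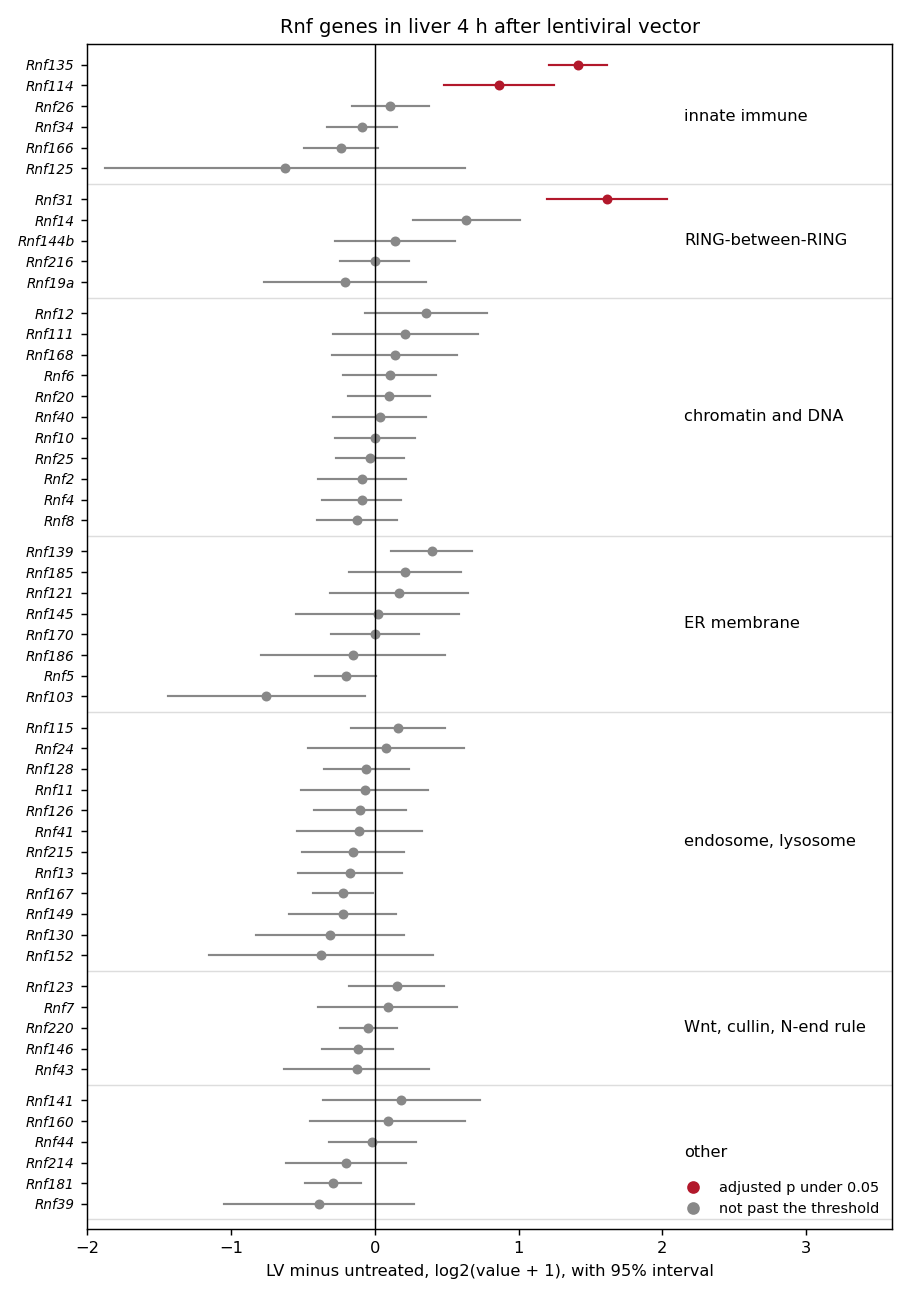
Difference between LV and untreated livers (log2(value + 1), points) with its 95% confidence interval (lines) for the Rnf genes reported by name, grouped by role; red marks an adjusted p under 0.05. Rnf31, Rnf135 and Rnf114 lie to the right of the others, and most of the rest lie close to 0.

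**Figure D2:**
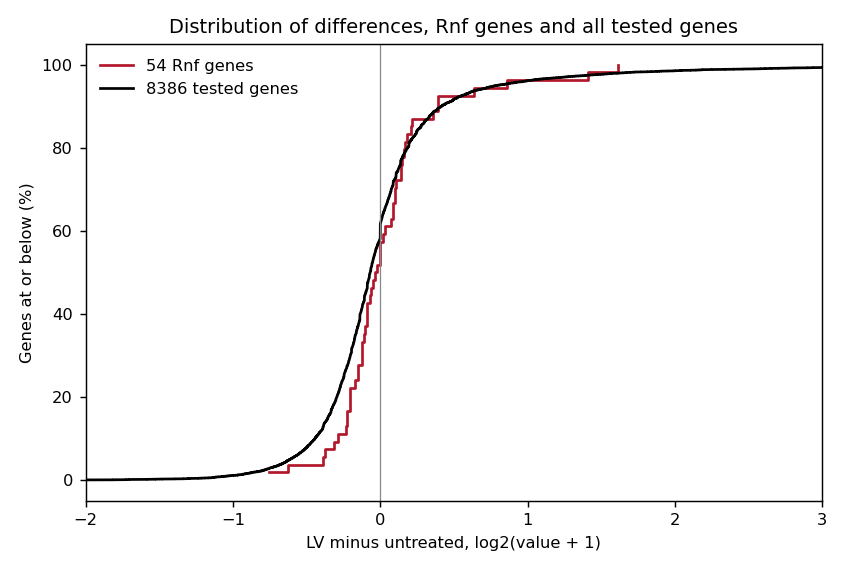
Cumulative share of genes (vertical axis, %) at or below a given difference between LV and untreated livers (log2(value + 1), horizontal axis, shown from -2 to 3) for the Rnf genes and for all tested genes. The lower quartile is -0.15 for the Rnf genes and -0.25 for all genes, and the upper quartiles are 0.14 and 0.12.

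The largest difference in the family was that of Rnf31. Rnf31, also known as HOIP, is the catalytic subunit of the linear ubiquitin chain assembly complex, which modifies components of TNF receptor and NF-kB signalling. Its deposited value was 31, 24 and 22 in LV livers and 7, 9 and 7 in untreated livers. Every LV value was more than double any untreated value. The means were 25.7 ± 4.73 in LV and 7.67 ± 1.15 in untreated livers (SD, n = 3 each), a ratio of 3.35, and the difference on the log2 scale was 1.62 ± 0.17 (SE; limma adjusted p = 0.00764). The adjusted p was 0.0529 without LV replicate 2 and 0.0506 without untreated replicate 1.

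Rnf135, also known as Riplet, attaches ubiquitin to RIG-I and is needed for its activation. Its value was 16, 15 and 14 in LV livers and 5 in each untreated liver. The groups were well apart, and the spread within untreated livers was below the rounding of the table. The mean was 15.0 ± 1.00 in LV and 5 ± 0 in untreated livers (SD, n = 3 each), and the log2 difference was 1.41 ± 0.08 (SE; limma adjusted p = 0.00144). It kept an adjusted p of at most 0.0322 in all 15 alternative settings. Added rounding noise was not a stricter setting, as the limma adjusted p of Rnf135 fell to 0.000399 there. The count of all called genes was then 455, against 388 in the main fit.

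Rnf114, a ligase with further zinc fingers whose human counterpart is a psoriasis susceptibility gene, was among the most abundant members. It had 55, 52 and 44 in LV livers and 27, 32 and 23 in untreated livers. The lowest LV value lay above the highest untreated one. The means were 50.3 ± 5.69 in LV and 27.3 ± 4.51 in untreated livers (SD, n = 3 each), a ratio of 1.84 and a log2 difference of 0.86 ± 0.15 (SE; limma adjusted p = 0.0430). This call was lost when any single library was left out, with adjusted p between 0.0515 and 0.174, while its log2 difference ran from 0.75 to 1.07 over the 15 settings.

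**Figure D3:**
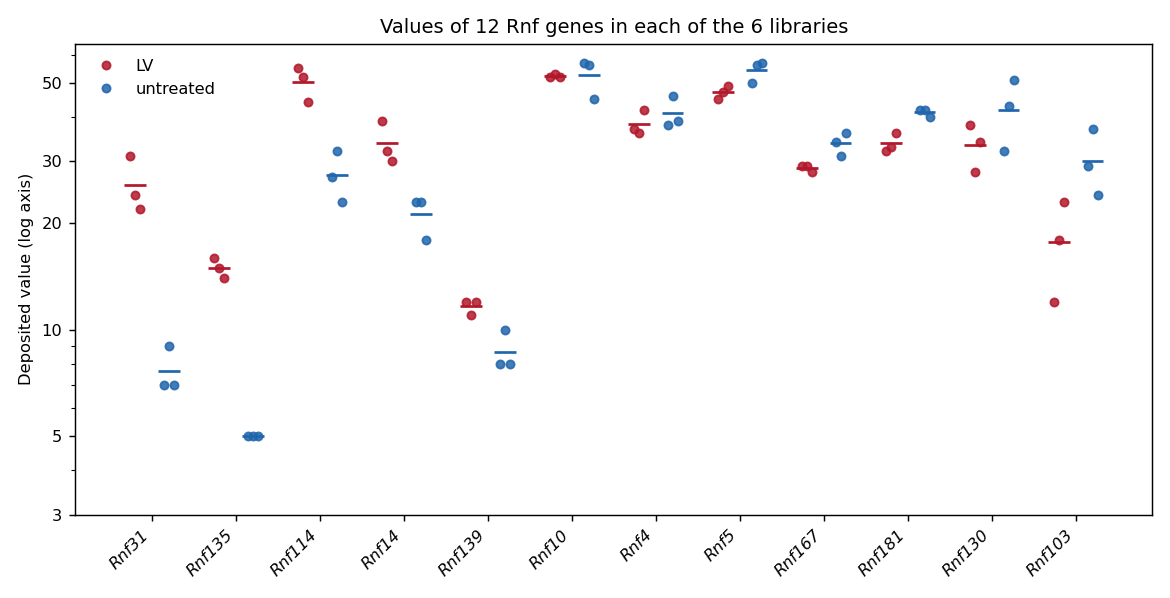
Deposited values (log axis) in each LV liver (red, left) and untreated liver (blue, right) for 12 Rnf genes named by rule, ordered by their difference; bars are means of 3. The groups are apart in Rnf31, Rnf135 and Rnf114 at the left, and in Rnf103 at the right the LV values lie lower, from 12 to 23 against 24 to 37.

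The bases before the start site of these 3 genes are shown because the genes rose together. They are from RefSeq (GRCm38.p6, a later build than the mm9 of the deposited table), cover 250 bases each on the plus strand, and end at the start site. The places are chr14:55591492-55591741 for Rnf31, chr11:80183619-80183868 for Rnf135 and chr2:167503193-167503442 for Rnf114, for which the start site outside the neighbouring gene was taken. Capitals mark GAAA or its complement TTTC, which is a part of the core of the interferon-stimulated response element.
Rnf31: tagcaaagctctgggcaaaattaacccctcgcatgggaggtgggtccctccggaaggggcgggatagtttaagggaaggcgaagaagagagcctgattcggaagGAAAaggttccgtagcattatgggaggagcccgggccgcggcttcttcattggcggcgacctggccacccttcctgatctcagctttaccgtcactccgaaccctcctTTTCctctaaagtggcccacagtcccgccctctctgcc
Rnf135: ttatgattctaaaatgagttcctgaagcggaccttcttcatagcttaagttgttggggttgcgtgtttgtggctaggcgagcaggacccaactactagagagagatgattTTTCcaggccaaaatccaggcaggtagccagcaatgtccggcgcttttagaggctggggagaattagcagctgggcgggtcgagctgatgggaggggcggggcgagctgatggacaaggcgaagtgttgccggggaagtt
Rnf114: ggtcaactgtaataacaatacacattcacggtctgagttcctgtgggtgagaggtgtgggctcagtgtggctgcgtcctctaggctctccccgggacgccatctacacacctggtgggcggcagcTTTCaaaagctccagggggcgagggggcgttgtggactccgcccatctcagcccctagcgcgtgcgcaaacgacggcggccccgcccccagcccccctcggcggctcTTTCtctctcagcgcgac

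These 4 letters are common and stood before 86.4% of the 32851 start sites with a promoter entry. The full core was searched as GAAA, any 2 bases and GAAA, on either strand, from 250 bases before to 50 bases after each start site. It was in none of these 3 promoters. Of the 54 members, 45 had a promoter entry, and 3 of these (6.67%) held the core, against 3.99% of all 27025 genes with an entry. The genes with an entry were not limited to those measured in liver. The members with the core were Rnf121, Rnf146 and Rnf20, and none of them passed the test. The cores of Rnf121 (chr7:102065323-102065352, minus strand) and Rnf146 (chr10:29357826-29357855, minus strand) began at positions -177 and -132 from the start site and are given in capitals with 10 bases on either side.
Rnf121: aagaacaactTTTCGTTTTCcgagaacgct
Rnf146: ctaaggcatgGAAACTGAAAtgacacattg

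Rnf121 had 16, 13 and 10 in LV livers and 13, 11 and 10 in untreated livers, and Rnf146 had 7, 6 and 7 in LV livers and 7, 8 and 7 in untreated livers. The values overlapped in both. TTC, any 3 bases and GAA, the core of the gamma-activated site bound by STAT factors, was in 7 members (15.6%). The share was 9.55% of all genes with a promoter entry. This core was in none of Rnf31, Rnf135 and Rnf114. A match is a description of the letters and does not show binding. Members without a promoter entry included Rnf5, Rnf11, Rnf14, Rnf19a, Rnf125, Rnf139, Rnf170 and Rnf215.

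Rnf31 works in a complex, and its partners in that complex did not pass the test. Rbck1, also known as HOIL-1, had 49, 52 and 44 in LV livers and 44, 43 and 41 in untreated livers. Its log2 difference was 0.17 (95% interval -0.05 to 0.40; limma adjusted p = 0.339). Sharpin, the remaining subunit, had 19, 17 and 18 in LV livers and 18, 19 and 21 in untreated livers, a log2 difference of -0.10 (95% interval -0.33 to 0.13; limma adjusted p = 0.598). Both intervals end well below the difference of Rnf31. The ratio of the Rnf31 value to the Rbck1 value was 0.531 ± 0.0898 in LV and 0.18 ± 0.0263 in untreated livers (SD, n = 3 each). To Sharpin it was 1.42 ± 0.205 in LV and 0.399 ± 0.0707 in untreated livers. Neither ratio overlapped between the groups, and for each an exact two-sided permutation test gave p = 0.1, the smallest that 3 against 3 allows. These pairs were chosen with the values known.

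Among 22 genes of linear ubiquitin and TNF receptor signalling, all measured, 4 rose, 1 fell and 17 did not pass. Over all tested genes, 3.76% rose and 0.870% fell. The genes were listed with earlier results of these data known. The median log2 difference of the list was 0.20, against -0.07 over all genes. Tnfaip3, also known as A20, which edits ubiquitin chains and restrains NF-kB, had 7, 5 and 5 in LV livers and 1 in each untreated liver (log2 difference 1.72 ± 0.13 SE, limma adjusted p = 0.0023). Tnip2, an A20-binding inhibitor of NF-kB, had 13, 11 and 10 in LV livers and 6 in each untreated liver. Birc2, a RING ligase of the TNF receptor complex, had 22, 18 and 17 in LV livers and 7, 10 and 7 in untreated livers. For each of these genes every LV value lay above the untreated ones. Birc3, a close relative of Birc2, also rose, with 14, 14 and 12 in LV livers and 9, 8 and 7 in untreated livers. Tradd, an adaptor of the same receptor complex, was the gene that fell, with 9, 10 and 10 in LV livers and 13, 14 and 14 in untreated livers. Of these 5 calls only that of Tnfaip3 held when any single library was left out. Its untreated values were all 1, near the floor, so their spread was below the rounding of the table. Adjusted p values reached 0.0943 for Tnip2, 0.117 for Birc2, 0.173 for Birc3 and 0.144 for Tradd.

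Several partners of Rnf135 in RNA sensing rose as well. Of 19 measured genes of RIG-I-like receptor signalling, out of 20 listed, 9 rose, none fell and 10 did not pass. The share that rose over all tested genes was 3.76%, and this list too was chosen with earlier results known. Its median log2 difference was 0.35, and 1 gene was lower at an unadjusted p under 0.05. Ddx58, which encodes RIG-I, had 49, 49 and 46 in LV livers and 10, 10 and 8 in untreated livers (log2 difference 2.25 ± 0.11 SE, limma adjusted p = 0.00137). Dhx58, a related helicase without a signalling domain, had 64, 69 and 57 in LV livers and 7, 9 and 5 in untreated livers. Zc3hav1, an antiviral zinc finger protein, had 60, 56 and 49 in LV livers and 12, 13 and 9 in untreated livers. Ifih1, which encodes the RNA sensor MDA5, had 60, 60 and 46 in LV livers and 10, 14 and 10 in untreated livers. These 4 genes, and Irf7, held their calls whichever single library was left out. The calls of Tbk1, Trim25, Ikbke and Azi2 did not, with adjusted p of up to 0.0593, 0.113, 0.130 and 0.142. The ratio of Rnf135 to Ddx58 was lower in LV livers, at 0.312 ± 0.0123, against 0.542 ± 0.0722 in untreated livers (SD, n = 3 each; exact two-sided permutation p = 0.1, the smallest possible). Mavs, the adaptor that RIG-I signals through, listed under an older name, had 37, 36 and 47 in LV livers and 40, 51 and 39 in untreated livers (limma adjusted p = 0.724).

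**Figure D4:**
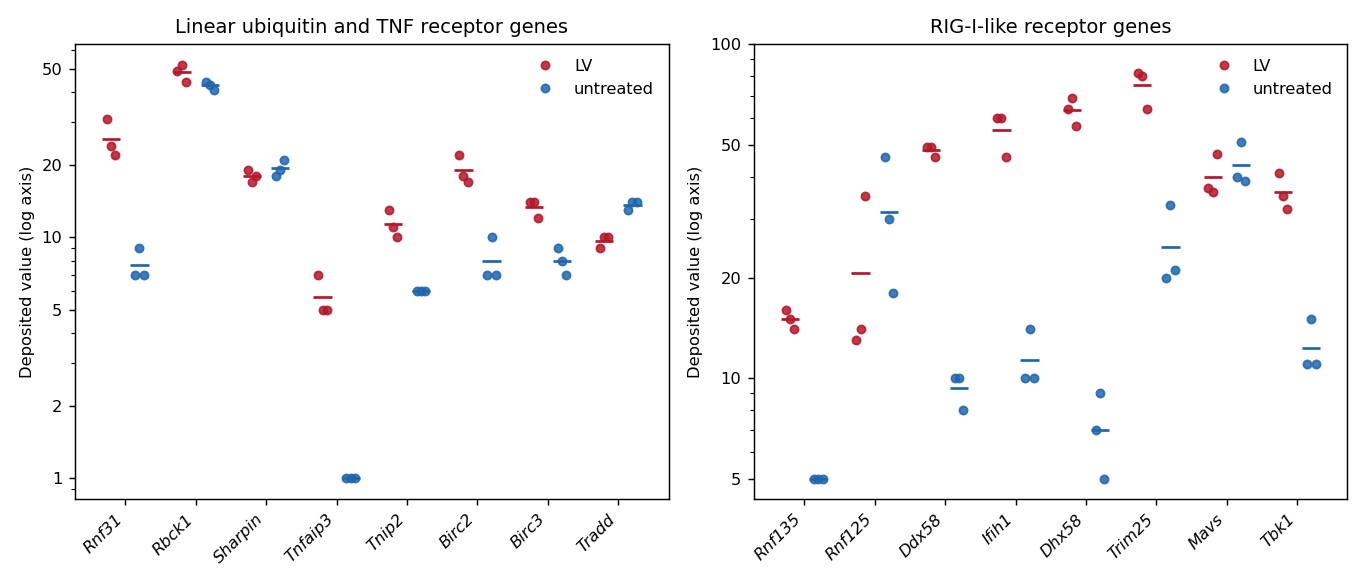
Deposited values (log axis) in each LV liver (red, left) and untreated liver (blue, right) for Rnf31 with genes of linear ubiquitin signalling, and for Rnf135 and Rnf125 with genes of RIG-I-like receptor signalling; bars are means of 3. Rnf31 is higher in LV livers while Rbck1 and Sharpin lie at like levels in both groups, and Ddx58, Ifih1 and Dhx58 are as clearly apart as Rnf135.

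Other RNF genes with described roles in innate signalling did not pass. Rnf125 marks RIG-I for degradation in human cells. It had 13, 14 and 35 in LV livers and 46, 30 and 18 in untreated livers. Its spread was the widest of any member in both groups, with SDs of the log2 value of 0.76 in LV and 0.65 in untreated livers, and the interval of its difference ran from -1.87 to 0.63. LV replicate 3 lay within the untreated range. Rnf166 had 8, 9 and 8 in LV livers and 9, 11 and 10 in untreated livers, with a single value shared between the groups (log2 difference -0.23, limma adjusted p = 0.288). Rnf26, which binds the DNA-sensing adaptor STING, and Rnf34, described to act on MAVS, stayed between 3 and 5 in every library.

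The other RING-between-RING ligases, the class that passes ubiquitin through a cysteine of its own as Rnf31 does, did not pass. Rnf14, a ligase first described as a coactivator of the androgen receptor, had 39, 32 and 30 in LV livers and 23, 23 and 18 in untreated livers. The groups did not overlap, and the log2 difference was 0.63 ± 0.15 (SE; limma adjusted p = 0.0890). With median-of-ratios scaling the adjusted p was 0.0410. Rnf19a, Rnf144b and Rnf216 had log2 differences of -0.21, 0.14 and 0.00.

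At the endoplasmic reticulum, 0 of 8 members passed in limma, and 1 was higher and 1 lower at an unadjusted p under 0.05. Of all 8386 tested genes, 388 passed, and at that unadjusted p 772 were higher and 866 lower. Rnf103, a membrane ligase of ER-associated degradation, had 12, 18 and 23 in LV livers and 29, 37 and 24 in untreated livers. This was the most negative difference of the family (-0.76 ± 0.27 SE, 95% interval -1.44 to -0.07; limma adjusted p = 0.218). All LV values lay below the untreated ones, and LV replicate 3 came within 1 of the lowest. Rnf139, also known as TRC8, a sterol-sensing domain ligase, had 12, 11 and 12 in LV livers and 8, 10 and 8 in untreated livers (0.40 ± 0.11 SE; limma adjusted p = 0.138). Rnf5, which acts on misfolded membrane proteins and, in human cells, on MAVS and STING, had 45, 47 and 49 in LV livers and 50, 56 and 57 in untreated livers. Its groups did not overlap either, over a small range (-0.20 ± 0.08 SE; limma adjusted p = 0.263). Rnf121, Rnf145, Rnf170, Rnf185 and Rnf186 had differences of -0.15 to 0.21. RefSeq also lists a pseudogene of Rnf170, so its reads may be shared. In 22 other measured genes of ER-associated degradation 0 passed in limma, and 1 was higher and 2 lower at an unadjusted p under 0.05. The higher one was Syvn1, with 68, 49 and 36 in LV livers and 27, 31 and 18 in untreated livers. Its log2 difference was 0.97 (limma adjusted p = 0.164). Herpud1 and Erlin1 were the lower ones, with log2 differences of -0.76 and -0.39 (limma adjusted p = 0.142 and 0.139). Herpud1 had 115, 127 and 115 in LV livers and 151, 203 and 271 in untreated livers.

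In 12 ligases of endosomes, lysosomes and the plasma membrane, the median difference was -0.13, against -0.07 over all tested genes. Of the 12 differences, 10 were below 0, against 4865 of 8386 among all genes. None of these ligases passed in limma, and 1 was lower at an unadjusted p under 0.05, against 866 of all 8386 genes. That gene was Rnf167, a lysosomal ligase with a protease-associated domain. It had 29, 29 and 28 in LV livers and 34, 31 and 36 in untreated livers (-0.22 ± 0.08 SE; limma adjusted p = 0.227). Rnf130, the mouse relative of fly goliath, had 38, 28 and 34 in LV livers and 32, 43 and 51 in untreated livers. Rnf152, a lysosomal ligase that restrains mTORC1, had 3, 4 and 8 in LV livers and 6, 7 and 6 in untreated livers, with LV replicate 3 above all untreated values. Rnf11, Rnf13, Rnf24, Rnf41, Rnf115, Rnf126, Rnf128, Rnf149 and Rnf215 had differences of -0.22 to 0.16. Rnf128, known as GRAIL in T cells, had 31, 33 and 27 in LV livers and 34, 28 and 33 in untreated livers.

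Ligases grouped under chromatin, transcription, splicing and DNA damage showed small differences. Of 11 members 0 passed in limma, and 0 had an unadjusted p under 0.05, against 19.5% of all tested genes. Differences ran from -0.13 to 0.36, and every 95% interval lay between -1 and 1. Rnf10, the most abundant member, had 52, 53 and 52 in LV livers and 57, 56 and 45 in untreated livers. Rnf4, which recognises SUMO-modified proteins, had 37, 36 and 42 in LV livers and 38, 46 and 39 in untreated livers. Rnf2, the catalytic subunit of Polycomb complexes that ubiquitinates histone H2A, stayed at 4 or 5 in every library. Rnf8 and Rnf168, which act in turn at DNA breaks, had 9 to 12 and 2 to 3. Rnf20 and Rnf40, partners in ubiquitination of histone H2B, had 8 to 10 and 12 to 16. Rnf12, now named Rlim, had the highest difference of the group, with 6, 5 and 5 in LV livers and 3, 5 and 4 in untreated livers (limma adjusted p = 0.307). Rnf6, Rnf25 and Rnf111 had differences of 0.10, -0.03 and 0.21. In 16 measured partners of these ligases, from Polycomb and DNA break signalling, 0 passed, with 1 higher at an unadjusted p under 0.05. That gene was Pcgf5, with 18, 13 and 15 in LV livers and 5, 10 and 6 in untreated livers. Its log2 difference was 1.07 (95% interval 0.42 to 1.72, limma adjusted p = 0.0962). Over all tested genes, 3.76% rose and 0.870% fell.

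Members of the Wnt, cullin and N-end rule pathways did not pass either, with 0 of 5 at an unadjusted p under 0.05. Rnf43, a target of Wnt signalling that removes Wnt receptors from the cell surface, had 8, 12 and 12 in LV livers and 11, 14 and 10 in untreated livers. Rnf146, which degrades Axin, was among the steady genes given above with its promoter. Rnf123, a ligase for the cell cycle inhibitor p27, had 22, 24 and 29 in LV livers and 23, 24 and 20 in untreated livers. Rnf7, a RING subunit of cullin ligases, had 18, 14 and 12 in LV livers and 15, 15 and 11 in untreated livers. Rnf220 had 9 to 10 in LV livers and 10 in each untreated liver. Among 16 measured genes of Wnt receptor turnover 1 fell, the receptor Fzd8, with 5, 6 and 6 in LV livers and 14, 12 and 12 in untreated livers (log2 difference -1.04 ± 0.11 SE, limma adjusted p = 0.00846, and 0.0524 without LV replicate 2). Of 15 cullin-RING core genes 0 passed, with 1 higher and 1 lower at an unadjusted p under 0.05. Over all tested genes, 3.76% rose, 0.870% fell and 19.5% had an unadjusted p under 0.05.

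Of 6 members with other or little described roles that are reported here, 0 passed in limma. At an unadjusted p under 0.05, 0 were higher and 1 lower, against 772 and 866 of all 8386 tested genes. Rnf181 had 32, 33 and 36 in LV livers and 42, 42 and 40 in untreated livers. The groups did not overlap, and the difference was small (-0.29 ± 0.08 SE; limma adjusted p = 0.120). Rnf39, Rnf44, Rnf141, Rnf160 and Rnf214 had differences of -0.39 to 0.18. Rnf160, now named Ltn1, works in ribosome quality control.

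Upstream of the ligases, the genes that passed encode enzymes of the ubiquitin-like modifier ISG15. Of 8 measured activating enzymes 1 rose, Uba7, listed as Ube1l, with 66, 60 and 41 in LV livers and 10, 8 and 6 in untreated livers (log2 difference 2.65 ± 0.25 SE, limma adjusted p = 0.00517). Of 29 measured conjugating enzymes 1 rose, Ube2l6, with 129, 117 and 89 in LV livers and 41, 36 and 30 in untreated livers (1.61 ± 0.18 SE, limma adjusted p = 0.00987, and up to 0.0709 with single libraries left out). Of 2 measured ubiquitin genes 0 passed, and 0 had an unadjusted p under 0.05. In a list of other membrane-bound and single-subunit ligases, 35 genes were measured and 1 rose. It was Dtx3l, the partner of Parp9, with 59, 56 and 49 in LV livers and 11, 14 and 11 in untreated livers. That list does not hold every other RING ligase, and Birc2, Birc3 and Trim25, which also rose, were counted in the lists above. Over the 181 measured genes of all these lists 18 passed, 16 higher and 2 lower, and 8 of the 18 held whichever single library was left out. Of all 8386 tested genes, 315 (3.76%) were higher and 73 (0.870%) lower. As the lists were chosen with earlier results of these data known, the counts only describe the listed genes. Leaving out LV replicate 1 or LV replicate 2 gave 11 and 8 calls, and leaving out untreated replicate 1 or untreated replicate 3 gave 10 and 9.

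By position, Rnf31 lies beside interferon-related genes. In RefSeq its nearest coding neighbours are Psme2, an activator subunit of the proteasome, and Irf9, the DNA-binding subunit of the interferon-activated complex ISGF3. Irf9 had 33, 32 and 34 in LV livers and 8, 13 and 8 in untreated livers (log2 difference 1.70 ± 0.19 SE, limma adjusted p = 0.00987, and up to 0.0664 with single libraries left out). The ratio of Rnf31 to Irf9 overlapped between the groups, at 0.779 ± 0.148 in LV and 0.814 ± 0.105 in untreated livers (SD, n = 3 each; exact two-sided permutation p = 0.9). Psme2 had 35, 23 and 17 in LV livers and 12, 9 and 11 in untreated livers (1.11 ± 0.27 SE, limma adjusted p = 0.101). It has close copies in the genome, so its value is uncertain. Psme1, the other activator subunit, had 105, 80 and 67 in LV livers and 63, 58 and 54 in untreated livers (limma adjusted p = 0.215). Emc9, listed as Fam158a, lies between Psme1 and Psme2 and had 27, 24 and 34 in LV livers and 29, 31 and 29 in untreated livers. Neighbours were looked up after the values of Rnf31 were known.

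**Figure D5:**
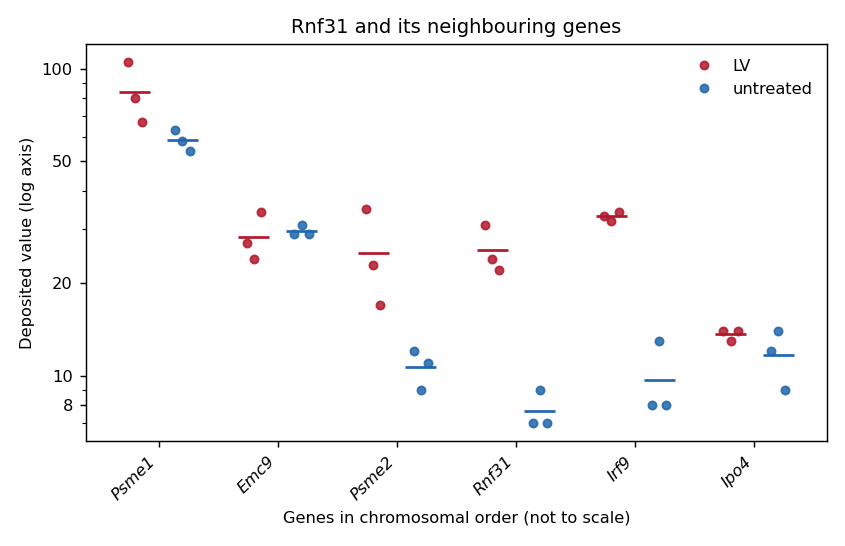
Deposited values (log axis) in each LV liver (red, left) and untreated liver (blue, right) of Rnf31 and the nearest coding genes on either side in the table, in chromosomal order and not to scale; bars are means of 3. Psme1, Psme2, Rnf31 and Irf9 lie higher in every LV liver than in any untreated liver, whereas Emc9 and Ipo4 overlap.

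Next to Rnf135, Adap2 had 34, 37 and 38 in LV livers and 28, 31 and 27 in untreated livers (0.33 ± 0.09 SE, limma adjusted p = 0.121), and Rhot1 had 7, 8 and 10 in LV livers and 8, 11 and 9 in untreated livers. Beside Rnf114 lies Spata2, which links a deubiquitinase to the Rnf31 complex. It had 4, 6 and 5 in LV livers and 4, 6 and 4 in untreated livers. Farther out, B4galt5, which encodes a galactosyltransferase, had 20, 20 and 17 in LV livers and 12, 11 and 13 in untreated livers (0.62 ± 0.11 SE, limma adjusted p = 0.0391, and up to 0.160 with single libraries left out).

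Across libraries, the median of the members relative to the untreated mean was -0.05, 0.00 and 0.05 in LV replicates 1 to 3, against -0.03, 0.12 and -0.09 in untreated replicates 1 to 3, and the groups overlapped. The summed value of the 54 genes was 867, 846 and 886 in LV livers and 860, 924 and 794 in untreated livers. RefSeq holds 83 coding genes named Rnf and a number, and 31 of them, Rnf213 and Rnf19b included, were not analysed here.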

How the data were processed

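Per the labels' protocols, liver RNA was extracted with QIAzol and made into TruSeq libraries. Per the submitters' processing notes the build was mm9; no aligner, annotation or counting method is named in the labels. No label names the unit either; the deposited numbers were taken as a score that the authors had normalized and rounded. Replicate spread was below that of counted reads (for means of 2 to 5, the median ratio of variance to mean was 0.1 among LV and 0.125 among untreated libraries), and the floor of the values fell with transcript length (first percentile of 6.17 in the shortest and 1 in the longest decile of genes), so values resemble a level per length. Without read totals the depth is unknown, so intervals for counting error are left out.

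The filter kept 8386 of 8390 genes, those reaching 1 in 3 or more libraries. A group model of log2(value + 1) came from limma 3.58.1 (R 4.3.3; eBayes with trend), without a block, with two-sided p and Benjamini-Hochberg adjustment over all tested genes; the fit was tested on simulated data. Members, role groups and lists were chosen with earlier results of these data known; Rnf160 was given its role group after the table was seen. Values in every library are given for members that passed, had an unadjusted p under 0.05, or did not overlap with a log2 difference of at least 0.5, and for the 5 most abundant; further members are examples, those with the largest difference in a role group or others chosen with values known. From each list up to 4 called genes with the smallest p are named. Birc3, Tradd, Tbk1, Ikbke, Azi2, Trim25, Irf7, Syvn1, Herpud1, Erlin1, Pcgf5, partners and neighbours were added after their values were seen. Promoters are from RefSeq (GRCm38.p6), whose gene table gave names and neighbours only. 1 member is not reported by name here. A planned search of protein sequences was not run.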

Additional observations from a re-analysis of the deposited data

How the results depend on the processing

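The number of Rnf genes that were higher ranged from 1 to 3 with single libraries left out and was 1 with a replicate block. Deviations of same-numbered libraries from their group means correlated at 0.278, -0.470 and -0.337. Those of LV replicate 3 and untreated replicate 2, which stood apart from the rest, correlated at 0.612. With such libraries under different numbers, these values cannot decide whether the numbers pair samples. The number of higher Rnf genes was 3 or 4 in the other settings, and the number of lower Rnf genes was 0 in all 15. Rnf135 passed in all 15 settings, Rnf31 in 12 and Rnf114 in 7. Rnf31 had an adjusted p of 0.0690 with the replicate block, and Rnf114 of 0.0862 there and 0.0568 without LV replicate 3 and untreated replicate 2. Rnf14 passed in 1 setting, median-of-ratios scaling. Rnf24 passed only where LV replicate 3 was left out, which leaves values of 4 and 4 against 3 in each untreated library, or 3 and 3 where untreated replicate 2 was left out too. No named member changed direction while past the threshold.

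The count of all called genes, 388, ranged from 130 to 433 with single libraries left out and was 156 with the replicate block. Calls in the partner lists, 18, ranged from 8 to 16 and were 10 with the block. The cause of these losses was not tested. The median difference of the Rnf genes stayed between -0.07 and 0.04. Rounding limits genes at low values, where a step of 1 is the smallest difference that can be seen.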
